A study of Homo sapiens with 3 samples.

Results

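The NKAIN family consists of 4 human genes, NKAIN1 to NKAIN4, and was followed here in 2 lists of places bound by ARID1B in HEK293FRT cells. The members were found by position. All peaks in chr6:123700000-124900000, the stretch that holds NKAIN2, and all peaks within 100 kb of the bodies of NKAIN1, NKAIN3 and NKAIN4 were taken. This gave 7 of 1792 peaks in replicate 1 and 7 of 1820 in replicate 2, and every one of them lay in NKAIN2. They formed 7 of the 1313 regions found in both replicates. NKAIN2 was chosen by a measured value, the number of shared regions nearest to it in these lists, so that number is a description and carries no test.

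The lists come from chromatin immunoprecipitation followed by sequencing, which recovers the DNA attached to a protein in fixed cells. The series held 2 ARID1B immunoprecipitations, replicates 1 and 2, and 1 input sample of unselected chromatin, which was not analysed here. The cells were HEK293FRT, which derive from HEK293, a line of human embryonic kidney cells; the labels give no genotype change and no treatment for any sample. Separate cultures are not stated for replicates 1 and 2, so differences between them may be technical. All positions are on the build hg38. The lists carry no read counts, so the depth is unknown, and they hold called peaks only, so a stretch without a peak is not shown to be free of ARID1B. Cell identity could not be checked against marker genes, because no expression was measured.

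ARID1B is a DNA-binding subunit of BAF complexes, which use ATP to slide and evict nucleosomes and are known to occupy many enhancers. NKAIN proteins are small membrane proteins that bind the beta 1 subunit of the Na,K-ATPase, the pump that exports sodium and imports potassium. The name stands for that interaction, which was described in mouse and fly. NKAIN2 and its relatives are known mainly from the nervous system. NKAIN2 also carries the older name TCBA1, given after its disruption in a T-cell lymphoma. It is one of the very long genes of the genome, with few exons spread over large introns.

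The windows that RefSeq's promoter table lists for 2 members are shown because no ARID1B region reached either of them. Each line gives 300 bases from RefSeq on GRCh38.p14, from 250 before to 50 after the listed start site, with every CG dinucleotide in capitals. The NKAIN2 window lies at chr6:123804135-123804434 on the plus strand, and the NKAIN1 window at chr1:31239838-31240137 on the minus strand. The windows are not alike. That of NKAIN1 straddles the annotated start of its gene, while that of NKAIN2 belongs to a listed start site 520 bp past the annotated start and lies wholly inside the gene, beginning 270 bp past that start. The NKAIN2 letters are therefore not those before the outermost start, and the base composition of the windows is given for each alone. No promoter entry for NKAIN3 or NKAIN4 was used here.
NKAIN2: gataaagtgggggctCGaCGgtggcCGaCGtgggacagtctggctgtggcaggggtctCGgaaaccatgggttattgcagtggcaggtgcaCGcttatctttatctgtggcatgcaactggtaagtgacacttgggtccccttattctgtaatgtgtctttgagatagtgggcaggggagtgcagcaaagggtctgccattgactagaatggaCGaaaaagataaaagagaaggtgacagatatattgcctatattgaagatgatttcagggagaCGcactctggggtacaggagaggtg
NKAIN1: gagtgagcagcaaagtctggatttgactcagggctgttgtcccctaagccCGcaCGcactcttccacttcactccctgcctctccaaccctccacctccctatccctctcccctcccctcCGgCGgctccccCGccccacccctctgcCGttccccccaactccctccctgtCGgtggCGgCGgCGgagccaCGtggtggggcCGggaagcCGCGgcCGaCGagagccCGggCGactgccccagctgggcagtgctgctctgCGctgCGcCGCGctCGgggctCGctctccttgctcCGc
The NKAIN2 window held 8 CG dinucleotides and 50.3% G or C, and 60.7% of all 35116 promoter windows held at least that many. The NKAIN1 window held 25 CG dinucleotides and 71.0% G or C, and 32.0% of the windows held at least that many. Over the genome 0.510% of these windows (179 of 35116) were overlapped by a shared region. Those 179 windows had a median of 23 CG dinucleotides, against 14 over all windows. Neither the NKAIN2 nor the NKAIN1 window was among them. From the NKAIN2 window the nearest shared region was 36.8 kb away, and from the NKAIN1 window 1797 kb.

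NKAIN2 covers 1022 kb, chr6:123803865-124825640, and is read towards higher coordinates. It is the only annotated gene in the stretch examined. All 7 regions lay inside its body and none lay in the flanks on either side. Exons and introns were not separated, because the gene table used holds no exons. From the first region to the last they spanned 981 kb, or 96.0% of the gene.

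The first region, chr6:123841194-123841733, lay 37.6 kb from the annotated start of NKAIN2 (3.68% along the gene), beyond the window shown above. It scored 220 in replicate 1 and 148 in replicate 2. These scores were given by the authors on a scale that is not stated, and are used here to describe and to rank peaks within a list. The peak ranked 150 of 1792 in replicate 1 and 348 of 1820 in replicate 2, so it stood in the upper part of both lists.

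The next 3 regions lay close together in the first part of the gene. Region 2, chr6:124056853-124057304, lay 24.8% along the gene with scores of 245 and 254 in replicates 1 and 2 (ranks 118 and 117). Region 3, chr6:124076371-124076998, lay 26.7% along with scores of 127 and 138 (ranks 403 and 393), and was the widest of the 7 at 628 bp. Region 4, chr6:124090622-124090920, lay 28.1% along with scores of 95 and 83 (ranks 655 and 774). The scores thus went down from region 2 to region 4 in both replicates, and the places in the lists were close for regions 2 and 3.

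Regions 5 and 6 formed another close set after the middle of the gene. Region 5, chr6:124482202-124482485, lay 66.4% along with scores of 127 and 97 (ranks 403 and 637). Region 6, chr6:124488054-124488385, lay 67.0% along with scores of 58 and 52 (ranks 1141 and 1281). Region 6 was the lowest of the 7 in both replicates and the only one that scored below the median of its list, 74 in replicate 1 and 75 in replicate 2.

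The last region, chr6:124822118-124822592, lay 99.7% along the gene and ended 3.05 kb before its annotated end. It scored 323 in replicate 1 and 205 in replicate 2 (ranks 55 and 176). It was the highest of the 7 in replicate 1 and the second highest in replicate 2, after region 2. It was also the only NKAIN2 region less than 10 kb from an end of a protein-coding gene, and that end is the one where transcription finishes. The other 6 lay between 37.3 and 343 kb from the nearest end.

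**Figure D1:**
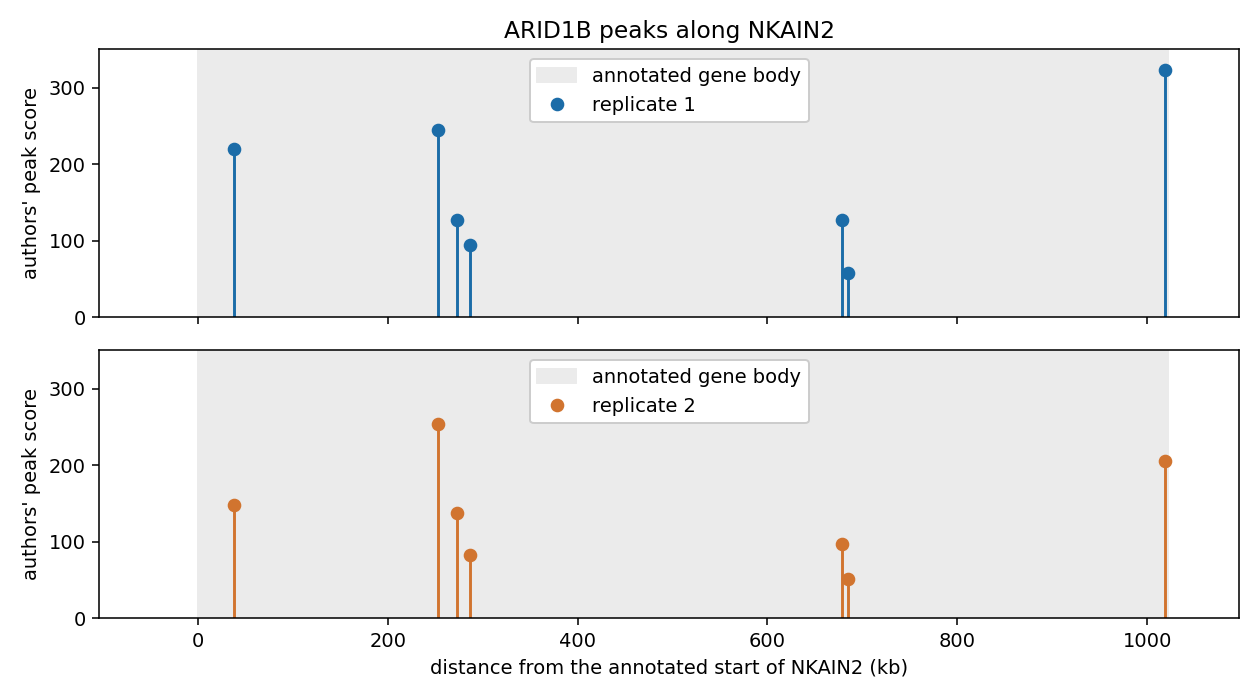
Peak score given by the authors (vertical axis, scale not stated) against distance from the annotated start of NKAIN2 in kb (horizontal axis), with replicate 1 above and replicate 2 below; each stem is 1 peak and the grey band is the annotated gene body. Both replicates show the same 7 positions, with the highest stem of replicate 1 (323) at the far end of the gene and that of replicate 2 (254) in the group of 3.

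Along the gene the regions were unevenly spaced. The 6 gaps between neighbours were 215, 19.1, 13.6, 391, 5.57 and 334 kb in order, with a median of 117 kb. Short and long gaps did not blend: 3 gaps were at most 20 kb and the other 3 were over 200 kb. Joining regions no more than 100 kb apart left 4 groups along NKAIN2, of 1, 3, 2 and 1 regions, the group of 3 spanning 34.1 kb and the group of 2 spanning 6.18 kb. Over the genome the 1288 gaps between neighbouring shared regions had a median of 821 kb, and 10.1% were at most 20 kb. The comparison is descriptive, since NKAIN2 was chosen for holding many regions.

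In the median NKAIN2 peaks stood above the middle of their lists. In replicate 1 the 7 scores ran from 58 to 323 with a median of 127, against a median of 74 over all 1792 peaks. In replicate 2 they ran from 52 to 254 with a median of 138, against 75 over all 1820 peaks. In each list 6 of the 7 scored at or above the list's median. The median percentile of the NKAIN2 peaks was 77.6 in replicate 1 and 78.5 in replicate 2, where all one-to-one shared regions had medians of 61.6 and 62.4. The best place of an NKAIN2 peak was rank 55 in replicate 1 and rank 117 in replicate 2. Widths had a median of 423 bp in replicate 1 and 390 bp in replicate 2, against 290 and 300 bp over the lists. Over all one-to-one shared regions the medians were 321 and 329 bp.

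Both replicates called the same places in NKAIN2. All 7 peaks of each replicate overlapped a peak of the other (100%, exact Clopper-Pearson 95% interval 59.0 to 100 in each list), where 73.5% of all replicate 1 peaks and 72.4% of all replicate 2 peaks did. The interval covers counting error only, and it includes both of those shares. Because NKAIN2 was picked for its shared regions, the choice itself favours a high share, so these values are a description. Sharing goes with score, so a nearer comparison takes peaks that scored at least as high as the lowest NKAIN2 peak. Of those, 85.0% were shared in replicate 1 (983 of 1156) and 82.2% in replicate 2 (1075 of 1308).

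The borders of most peaks matched closely. Replicate 2 starts differed from replicate 1 starts by -29 to 20 bp. The ends differed more, by -126 to 24 bp, with -65 bp in region 7. The centres lay at most 76.0 bp apart, with a median distance of 16.5 bp for NKAIN2 and 24.0 bp over all 1305 one-to-one pairs. The overlap covered a median of 98.6% of the shorter peak in NKAIN2, against 100% over all pairs. Of the longer peak it covered a median of 92.6% in NKAIN2, against 81.6% over all pairs. Region 6, the weakest, was the exception, with 58.8% of the longer peak: the replicate 2 peak was 206 bp wide where the replicate 1 peak was 306 bp, and its higher-coordinate end differed from that of replicate 1 by -126 bp. Among the other 6 regions the overlap covered at least 82.1% of the longer peak. The comparison with all pairs was not matched for width or score. NKAIN2 peaks were wider in the median, at 423 and 390 bp in replicates 1 and 2 against 321 and 329 bp over all pairs.

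**Figure D2:**
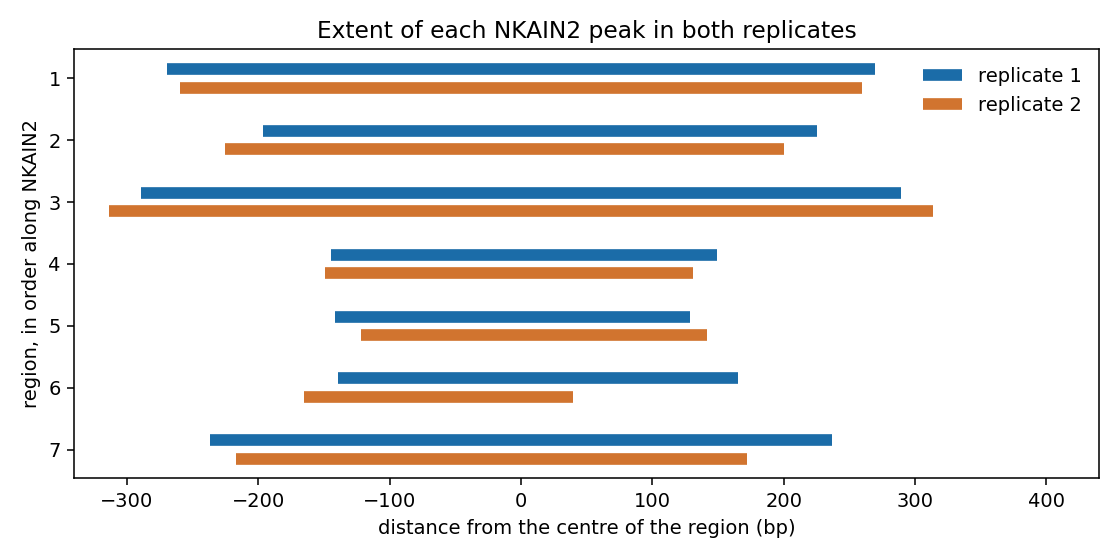
Extent of each NKAIN2 peak in bp from the centre of its region (horizontal axis) for regions 1 to 7 in their order along the gene (vertical axis, region 1 on top); blue bars are replicate 1 and orange bars replicate 2. The bars of both replicates nearly coincide except in region 6, where the replicate 2 peak is 206 bp wide and the replicate 1 peak 306 bp.

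Scores of the same region differed moderately between replicates. On the log2 scale the score ratio of replicate 2 to replicate 1 ran from -0.66 in region 7 to 0.12 in region 3, with a median of -0.19. It was below 0 in 5 of the 7 regions, with region 1 at -0.57 and region 5 at -0.39. Regions 2 and 3, in the group of 3, were the only ones that scored higher in replicate 2. Over all 1305 pairs the median ratio was 0.03, and 47.7% were below 0. The ratio varied with distance from gene ends. Distal regions, over 10 kb from all protein-coding gene ends and inside genes or not, had a median of -0.04 (985 pairs). Regions within 1 kb of an end had a median of 0.61 (161 pairs). The NKAIN2 median lay on the side of the distal regions. Region 7, 3.05 kb from an end, was in neither set and had the lowest ratio of the 7. All 7 ratios were within the range of -2.55 to 2.73 spanned by all pairs. Regions 7, 2 and 1 were the 3 highest in both replicates, and region 6 the lowest in both.

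**Figure D3:**
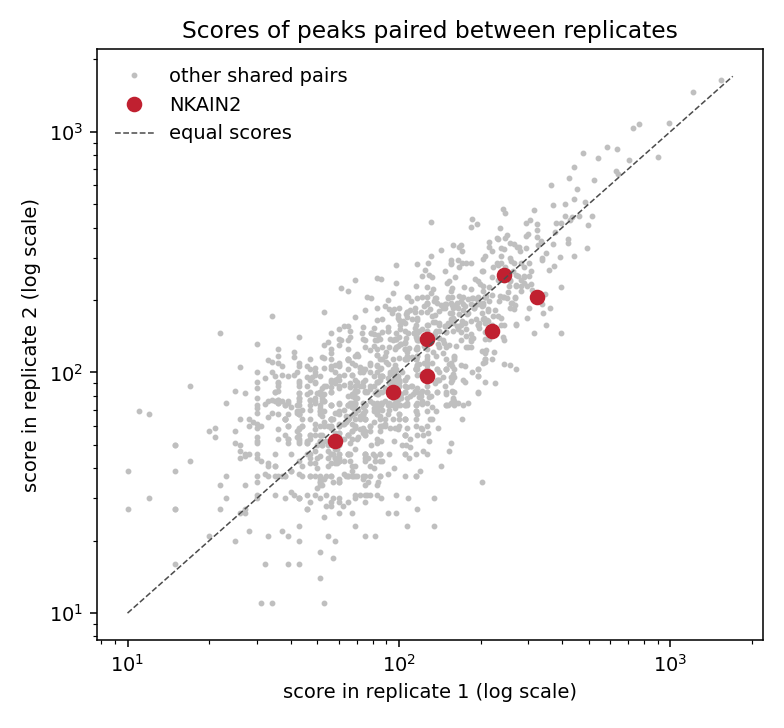
Score in replicate 2 (vertical, log scale) against score in replicate 1 (horizontal, log scale) for 1305 peaks paired one to one; red points are the 7 NKAIN2 regions, grey points all others, and the dashed line marks equal scores. The red points run from 58 to 323 in replicate 1 along the middle of the grey cloud, 5 of them below the line.

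The other members had no peak. NKAIN1 (chr1:31179745-31239887, 60.1 kb) and NKAIN4 (chr20:63240784-63254921, 14.1 kb) are short genes among close neighbours, with 3 and 6 other protein-coding genes within 100 kb. NKAIN3 (chr8:62248854-62999652, 751 kb) is long like NKAIN2. In each of them 0 peaks of replicate 1 and 0 of replicate 2 lay in the body or within 100 kb of it, and 0 shared regions lay within 600 kb. A shared region in the body or within 100 kb was found at 11.8% of all 19866 protein-coding genes, so most genes lacked one. A peak of either replicate at that distance was found at 18.7%, of replicate 1 at 14.1% and of replicate 2 at 16.6%. A shared region within 200 kb was found at 19.6% and within 600 kb at 41.8%, so among genes of all lengths one with none within 600 kb is also in the majority. The 600 kb share was not computed for genes as long as NKAIN3. Of genes of 500 kb to 2 Mb, 72.4% (223 of 308), NKAIN3 among them, had no shared region in the body or within 100 kb. Among genes of 30 to 120 kb, a range around the length of NKAIN1, a shared region was found at 10.6% (647 of 6106), and among genes of 7 to 28 kb, a range around that of NKAIN4, at 11.0% (708 of 6460).

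Among these 3 genes the next peak of either replicate lay closer to NKAIN1 than to NKAIN3 and NKAIN4, which were alike at 1665 kb. For NKAIN1 the nearest was a peak of replicate 2 alone, 323 kb away on the lower-coordinate side and outside annotated genes, with a score of 27 (rank 1724 of 1820). The nearest shared region lay 1797 kb away on the other side. NKAIN4 had its nearest shared region 1665 kb away, in CDH4, a cadherin gene, with scores of 75 in replicate 1 and 64 in replicate 2. NKAIN3 lay in a stretch of 18.3 Mb without any shared region, and 0.543% of the gaps between neighbouring shared regions were as long or longer. For NKAIN1 the stretch was 4.39 Mb, and 14.3% of the gaps were as long or longer. These are shares of gaps, not of genes or sequence, and a long gap covers more sequence than a short one. The nearest peaks to NKAIN3 belonged to 1 replicate each, at 1665 kb in replicate 1, in RAB2A, and at 3027 kb in replicate 2, in DNAJC5B.

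**Figure D4:**
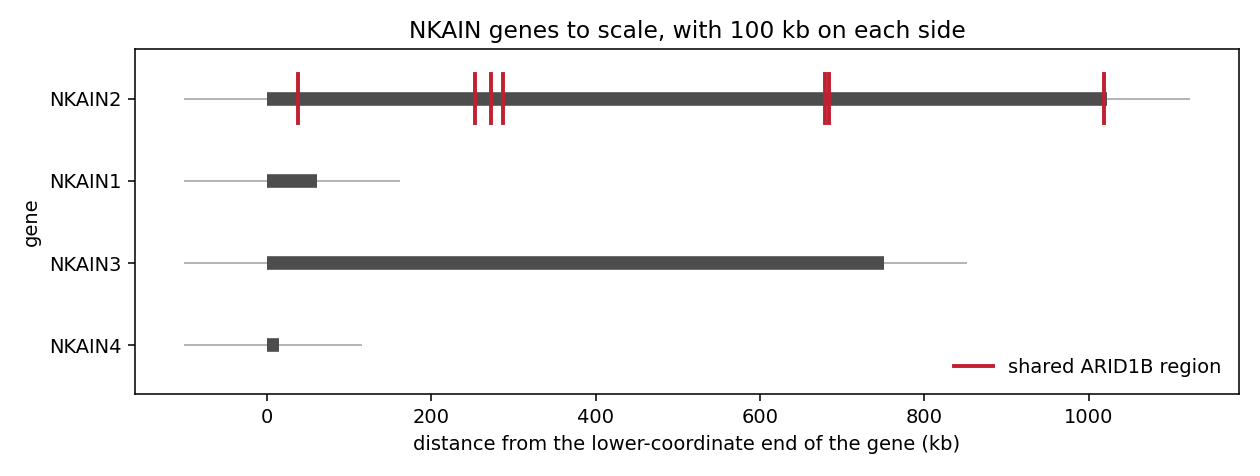
The NKAIN genes drawn to scale from the lower-coordinate end of each (horizontal axis in kb; 1 gene per row), with dark bars for gene bodies, thin lines for 100 kb on each side and red marks for regions shared by both replicates. The 7 regions lie in NKAIN2, and NKAIN3, 751 kb long, has 0, as have the short genes NKAIN1 and NKAIN4.

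Most genes as long as NKAIN2 and NKAIN3 had no shared region in the body. Of 308 protein-coding genes of 500 kb to 2 Mb, 23.4% had a shared region in the body and 76.6%, NKAIN3 among them, had none. NKAIN2 had 6.85 regions per Mb of gene body, where these 308 genes together had 0.555. Only 0.649% of them (2 of 308) had at least 7 regions: GMDS, a gene of fucose metabolism, with 9, and NKAIN2. Over all protein-coding genes of any length it was 0.0151% (3 of 19866), the third being ZNF608, a zinc-finger gene of 112 kb with 9. Cutting the genome into 2514 tiles as long as the NKAIN2 stretch, 0.239% of the tiles held at least 7 shared regions. By regions per Mb of gene body NKAIN2 ranked 3 of the 308 long genes, after GMDS with 14.5 and RAD51B, described below, with 6.95. These values describe where NKAIN2 stands, and they are no test, because the gene was picked for its count.

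**Figure D5:**
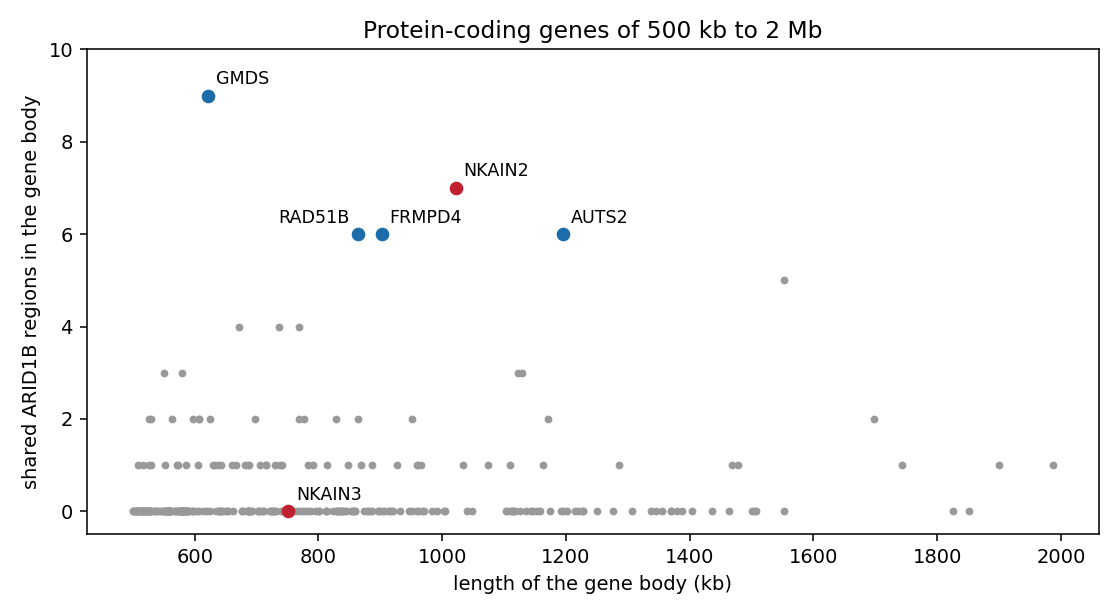
Number of regions shared by both replicates in the gene body (vertical axis) against gene length in kb (horizontal axis) for 308 protein-coding genes of 500 kb to 2 Mb; red points are NKAIN2 and NKAIN3, blue points other named genes, grey points the rest. NKAIN2 with 7 regions stands second to GMDS with 9, and NKAIN3 is among the 76.6% of genes at 0.

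The 3 genes of this length nearest to NKAIN2 in count were FRMPD4, a synaptic scaffold gene, RAD51B, a gene of homologous recombination, and AUTS2, a neurodevelopmental gene, with 6 regions each. Per Mb of gene body they had 6.65, 6.95 and 5.02 regions in that order, against 6.85 in NKAIN2. NKAIN2 and FRMPD4 were alike in that no peak was found in 1 replicate only: 7 and 7 peaks in NKAIN2 and 6 and 6 in FRMPD4 were all shared. In RAD51B 6 of 10 replicate 1 peaks and 6 of 7 replicate 2 peaks were shared, and in AUTS2 6 of 9 and 6 of 8. Among the 12 genes of this length with at least 8 peaks over both lists, 4 had every peak shared: NKAIN2, FRMPD4, FAT3 and KCNMA1. Over all peaks, 73.5% of replicate 1 and 72.4% of replicate 2 were shared. NKAIN2, FRMPD4, RAD51B and AUTS2 were picked by their counts of shared regions, which favours high shares, so these values are a description. Of the 4 genes with 6 or 7 regions NKAIN2 had the longest gap, 391 kb against 173 kb in AUTS2, 147 kb in FRMPD4 and 49.4 kb in RAD51B. The median gap was 117 kb in NKAIN2, 109 kb in AUTS2, 67.3 kb in FRMPD4 and 24.2 kb in RAD51B. No NKAIN2 gap was near its median, which lies between gaps of 19.1 and 215 kb. The order of NKAIN2 and AUTS2 by median gap is therefore uncertain. The median log2 score ratio of replicate 2 to replicate 1 was -0.19 in NKAIN2, -0.26 in RAD51B, -0.02 in FRMPD4 and 0.51 in AUTS2, so the genes did not share 1 direction.

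The nearest protein-coding neighbours of NKAIN2 on chromosome 6 were described as well. TRDN, which encodes the calcium-release protein triadin of muscle, lies 167 kb before NKAIN2 and had 0 peaks in its body in either replicate. RNF217, a ubiquitin ligase gene, lies 137 kb after NKAIN2 and held 2 shared regions. The first, chr6:125025309-125025525, was the first peak beyond the stretch examined, 200 kb after the end of NKAIN2, with scores of 71 in replicate 1 and 70 in replicate 2. The second, chr6:125050792-125051080, scored 133 and 64. The first scored below the NKAIN2 median in both replicates (127 and 138), and the second in replicate 2 but not in replicate 1. From the last NKAIN2 region to the first RNF217 region the gap was 203 kb. That is shorter than the gaps of 215, 391 and 334 kb inside NKAIN2, so the spacing shows no stop at that end of the gene.

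The pump with which NKAIN proteins interact was examined through 11 genes of its beta and FXYD subunits, which are part of the pump's genes, so the counts do not describe the pump as a whole. The beta genes ATP1B1 to ATP1B4 encode the subunits needed for assembly at the membrane (a role that ATP1B4 has lost in placental mammals), and FXYD1 to FXYD7 encode small regulators. They are 4.70 to 49.9 kb long. In the body 0 of the 11 had a shared region, where 2.80% of all protein-coding genes and 1.32% of those within that range of lengths (140 of 10642) had one, so 0 is near what all genes show. Within 100 kb 1 of 11 (9.09%) had one, where 11.8% of all protein-coding genes did, a share near that of all genes. ATP1B1, the gene of the beta 1 partner of NKAIN proteins, had 0 peaks within 100 kb, and its nearest shared region was 354 kb away.

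The gene with a region was ATP1B2, which encodes the beta 2 subunit, also known as an adhesion molecule of glia. The region, chr17:7579138-7579879, lay 66.7 kb from it in CD68, a macrophage marker gene, and scored 100 in replicate 1 and 186 in replicate 2. A peak of replicate 2 alone, chr17:7572539-7572837, lay 73.8 kb from ATP1B2 with a score of 36. Another peak of replicate 2 alone, with a score of 50, lay within 100 kb of FXYD5 and FXYD7, 78.3 and 93.9 kb away, and counts for both. The other 8 genes had no peak of either replicate. A peak of either replicate thus lay within 100 kb of 3 of the 11, where 18.7% of all protein-coding genes had one. Peaks of replicate 1 lay within 100 kb of 1 of the 11 and peaks of replicate 2 within 100 kb of 3, where 14.1% and 16.6% of all protein-coding genes had one. A shared region lay within 50 kb of 0 of the 11 and within 600 kb of 3, where 7.54% and 41.8% of all protein-coding genes had one.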

How the data were processed

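The submitters' processing notes name MACS2 2.1.2, Bowtie2 2.3.4.1 and bcl2fastq 2.20.0.422, and the build hg38. Settings, peak threshold, duplicate handling and any use of the input: not given in the sources used here. For each ChIP replicate the authors deposited a list of peaks, each with a score in whole numbers on an unstated scale. Retained PCR duplicates would raise scores.

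Starts were counted from 1. Peaks with 1 bp or more in common were shared, and connected overlapping peaks formed 1 region. Genes came from a RefSeq table of GRCh38.p14, the assembly hg38 names; 718 genes of unlocalized and alternate sequences were left out and 58961 kept. A percentile is the share of a list's peaks scoring no higher. The shares of NKAIN2 peaks that were shared carry exact Clopper-Pearson 95% intervals, and the other shares carry none. No hypothesis test was run. Overlap counting was tested on simulated data and recovered all planted pairs.

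The members and lists were chosen with earlier results of these data known. The list of pump genes was written longer, and its other members are not reported here. Genes named were the members, genes overlapped by their peaks, the nearest protein-coding neighbours of NKAIN2, subunit genes with a peak within 100 kb, and the 3 genes of 500 kb to 2 Mb nearest to NKAIN2 in count; GMDS, FAT3, KCNMA1 and the genes at the nearest peaks of other members, where given, were named after their values were seen. Python 3.11.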

Additional observations from a re-analysis of the deposited data

How the results depend on the processing

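Of 64 values computed under other settings, 57 stayed close to the reported ones, 7 moved and 0 changed sign. These counts do not measure robustness, because many values could not change. With no peak within 100 kb, the 0 at NKAIN1, NKAIN3 and NKAIN4 was fixed under other overlap rules, a score minimum, 1 replicate or 50 kb. The gene body of NKAIN2 alone could not differ either, as all its regions lay there. NKAIN2 kept 6 or 7 shared regions with 50% reciprocal overlap, with centres within 200 bp, in its gene body alone and among the peaks of each list that reached its median score, and NKAIN1, NKAIN3 and NKAIN4 had 0 within 50, 200 and 600 kb, where 7.54%, 19.6% and 41.8% of all protein-coding genes had one. With the median as a minimum, region 6 is lost by construction, which put the median spacing at 215 kb against 117 kb and the median percentile at 82.2 against 78.0. Using each replicate alone, the median spacing was 117.11 to 117.12 kb. These values counted as moved from 117.09 kb only because the spread allowed was their own standard deviation. The score ratio has no value with 1 replicate. Of the 11 genes of beta and FXYD subunits 1 was reached (11.8% of all protein-coding genes), but 3 with all peaks of replicate 2 (16.6%), 1 with all peaks of replicate 1 (14.1%), 0 within 50 kb (7.54%) and 3 within 600 kb (41.8%), so that count depends on the distance allowed. No paired analysis was possible because no result comes from a test between groups. Unknown depth limits what the absence of a peak at NKAIN1, NKAIN3 and NKAIN4 can show.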

Other observations

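NKAIN2 borders a long stretch of chromosome 6 without shared regions. Before its first region no shared region was found for 8.36 Mb, a stretch that holds 38 protein-coding genes, TRDN among them. Of the gaps between neighbouring shared regions 5.12% were as long or longer, which is a share of gaps and not of sequence. The shared region at the far side of that stretch, chr6:115485360-115485718, scored 105 in replicate 1 and 83 in replicate 2. Replicate 1 alone had a peak within it, with a score of 56, 6871 kb before NKAIN2. On chromosome 6 as a whole there were 106 shared regions, of which NKAIN2 held 6.60%, and the median gap was 529 kb.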
